A study of Saccharomyces cerevisiae with 10 samples.

Results

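The 56 genes described here encode the protein part of the small (40S) subunit of the cytosolic ribosome of Saccharomyces cerevisiae, from RPS0A to RPS31. They were chosen by name, as a published gene family and not by any measured value, and are 56 of the 6816 genes that had a row of their own in the expression tables. They make 32 proteins: 24 proteins are encoded by a pair of duplicated genes, an A and a B copy, and 8 by a single gene. An intron interrupts the coding sequence of 36 of them and the other 20 have none. All 56 were measured in every comparison.

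The 40S subunit holds the messenger RNA and the decoding site. Its proteins are grouped by where they sit, on the body and platform or on the mobile head. Yeast transcribes ribosomal protein genes as one large co-regulated group, in which Rap1, Fhl1, Ifh1 and Sfp1 bind upstream and nutrient signalling through TORC1 and protein kinase A sets the output. Some members also limit their own expression after transcription, through splicing or RNA decay. RSC is an ATP-dependent chromatin remodelling complex that slides and ejects nucleosomes and keeps promoters open, and it was the subject of the study.

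Polyadenylated RNA of 10 cultures was sequenced, 1 library for each strain and medium, and the authors deposited FPKM values (fragments scaled to transcript length and library size) in 9 tables that each compare 2 libraries. All strains were of the S288C background and came from tetrads of diploids heterozygous for an rsc mutation. In the first experiment WT and strains deleted for 1 of 5 RSC subunit genes, htl1Δ, npl6Δ, rsc1Δ, rsc2Δ and rtt102Δ, were in logarithmic growth in YPD, the standard rich medium with glucose, at 10 generations. In the second experiment WT and htl1Δ strains that both carried GALpr-HTL1, a copy of HTL1 under a galactose-responsive promoter, were brought to saturation in YPGR and then kept for 10 generations in logarithmic growth in YPGR or YPD. The labels do not spell out YPGR. HTL1 stood at 2815 FPKM in YPGR and 572 FPKM in YPD in that WT strain. With 1 library on each side there is no replicate error for any value below, no test was made, and each ratio describes 2 cultures. FPKM is relative to the library, so less RNA per cell of one gene and more of all others cannot be told apart. The authors' deposited tables, made with Cuffdiff on the same single libraries, called none of the 56 genes different in any of the 9 comparisons. Only 0 to 43 of all 6816 genes were called in a comparison, so none of 56 is near the share over all genes.

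Each deleted gene was nearly absent in its own library of the first experiment, at 0 to 0.713% of its WT level. In the second experiment HTL1 in the library labelled htl1Δ stood at 41.8% of WT in YPD and at 93.6% in YPGR. Both strains carry the added copy, so these are not HTL1-free cells. The libraries also differ in mating type. STE3, the receptor of alpha cells, was expressed in WT and npl6Δ, and STE2, the receptor of a cells, in htl1Δ, rsc1Δ, rsc2Δ and rtt102Δ. Among the GALpr-HTL1 libraries, htl1Δ in YPD had STE2 at 575 FPKM, as a cells do, and 145 FPKM of MET17, a gene of methionine synthesis. The other htl1Δ library, from YPGR, had STE2 at 6.73 FPKM and MET17 listed at 0, as did both WT libraries there, so the 2 libraries labelled htl1Δ go against being one strain. Libraries held an estimated 9010000 to 11630000 fragments.

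Copies of a pair share sequence, and this limits what can be said of each copy. Coding identity between the copies ran from 84.3% to 99.2% and 9 pairs make an identical protein. The share of 50-base windows found once in the genome was 70% or more in 20 pairs. It was lower in the other 4 pairs, among them RPS4 at 53.2%, RPS6 at 27.9% and RPS24 at 61.8% for the A copy, and the split between the copies of these 4 pairs is uncertain. For the RPS9 pair, which carries the clearest result below, coding identity was 91.1% and 95.0% of windows of RPS9A were unique. The FPKM of short genes is also less reliable, and 10 members, of the RPS21, RPS27, RPS28, RPS29 and RPS30 pairs, have coding sequences under 300 bases.

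For 3 pairs whose copies behaved differently, chosen after their values were seen, upstream sequences are shown first. Both copies of each pair encode nearly the same protein. Any part of these upstream sequences in the difference between copies was not tested. Each is the stretch from 250 to 101 bases before the start codon, read 5′ to 3′ on the coding strand from the R64 reference genome of RefSeq, the assembly also known as sacCer3. Capitals mark every match on either strand to the patterns ACCCATAC (Rap1), GACGC (Fhl1), CGCGC (Rsc3, an RSC subunit that binds DNA) and TTACCCG (Reb1), to the Abf1 consensus and a run of 8 A or 8 T. RPS9A lies at chrXVI:404950-406044 on the plus strand and the stretch is chrXVI:404700-404849. RPS9B lies at chrII:604508-605508 on the plus strand and the stretch is chrII:604258-604407.
RPS9A: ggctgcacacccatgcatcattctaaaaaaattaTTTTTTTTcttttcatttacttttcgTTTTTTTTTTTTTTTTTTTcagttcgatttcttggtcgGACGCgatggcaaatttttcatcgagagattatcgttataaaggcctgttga
RPS9B: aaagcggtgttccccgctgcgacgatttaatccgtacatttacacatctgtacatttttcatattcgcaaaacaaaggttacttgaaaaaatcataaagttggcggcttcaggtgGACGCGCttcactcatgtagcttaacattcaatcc
The RPS9A stretch holds T runs and an Fhl1 match, and the RPS9B stretch holds GACGCGC, in which the Fhl1 and Rsc3 patterns overlap. Upstream of the printed stretch, RPS9A also has an Rsc3 match at position -324 and another Fhl1 match at -426 from the start codon. RPS14A lies at chrIII:177500-178220 on the minus strand and the stretch is chrIII:178321-178470. RPS14B lies at chrX:73787-74611 on the plus strand and the stretch is chrX:73537-73686.
RPS14A: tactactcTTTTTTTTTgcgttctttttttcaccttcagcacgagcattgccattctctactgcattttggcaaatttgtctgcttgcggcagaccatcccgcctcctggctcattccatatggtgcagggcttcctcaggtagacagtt
RPS14B: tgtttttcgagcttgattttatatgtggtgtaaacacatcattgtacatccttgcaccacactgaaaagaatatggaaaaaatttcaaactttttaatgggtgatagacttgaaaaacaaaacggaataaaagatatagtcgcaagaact
The RPS14A stretch has a T run and that of RPS14B has no match to any of the 6 patterns. RPS28A lies at chrXV:648804-649007 on the minus strand and the stretch is chrXV:649108-649257. RPS28B lies at chrXII:673131-673334 on the plus strand and the stretch is chrXII:672881-673030.
RPS28A: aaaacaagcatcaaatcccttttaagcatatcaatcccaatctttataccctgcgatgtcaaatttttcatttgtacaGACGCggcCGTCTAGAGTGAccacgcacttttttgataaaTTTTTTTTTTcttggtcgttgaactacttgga
RPS28B: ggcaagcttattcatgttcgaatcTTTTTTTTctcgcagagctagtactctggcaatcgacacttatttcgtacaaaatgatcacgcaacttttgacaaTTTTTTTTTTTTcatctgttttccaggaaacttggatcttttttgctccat
The RPS28A stretch holds an Fhl1 match, an Abf1 match and a T run, and that of RPS28B holds T runs only. These matches are letters in a window and not measured binding sites.

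Over all 56 genes, in the window from 250 bases before to 50 bases after the start codon, the Fhl1 pattern occurred in 18 members, or 32.1%, against 17.7% of all 6007 promoters searched the same way. The Rsc3 pattern occurred in 10 members, or 17.9%, against 10.7% of all promoters, and a run of 8 A or T in 17.9% against 32.1%. The Abf1 pattern was in 5 members and the Reb1 pattern in 2. The Rap1 pattern was in none of the 56 in this window, against 0.816% of all promoters. In a window from 500 bases before the start, chosen after the first result was seen, it was in 11 members, or 19.6%, against 2.05% of all promoters. An absent match says only that these letters are not in the window.

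In WT cells of the first experiment the 56 genes took 15.5% of all FPKM. Their levels ranged from 336 FPKM for RPS9A to 23207 FPKM for RPS29B, with a median of 5960 FPKM, a spread of 69.1 times. The share was lower in 4 of the 5 deletion strains: it was 12.9% in htl1Δ, 11.0% in npl6Δ, 14.0% in rsc1Δ and 13.4% in rsc2Δ, and stood at 15.5% in rtt102Δ. The summed FPKM of the 56 genes, against WT scaled with each library, was 305712 against 400963 in htl1Δ and 264481 against 396711 in npl6Δ. It was 376872 against 390490 in rsc1Δ, 382227 against 381638 in rsc2Δ and 416576 against 388701 in rtt102Δ. In rsc2Δ the sum was thus not below WT, and the lower share there reflects a higher total. In the second experiment the share was 15.0% in WT and 15.2% in htl1Δ in YPD, and 9.53% and 9.39% in YPGR. The medium separated the libraries more than any deletion did on this measure. The summed level of the 56 genes was between 0.876 and 0.924 times that of 78 large-subunit genes in all 10 libraries. RPL41A and RPL41B were left out of that sum. The small- and large-subunit genes counted thus kept nearly the same proportion in each library. The proportion was lowest in YPGR, at 0.876 in WT and 0.881 in htl1Δ.

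The npl6Δ library had the lowest levels among the deletions. Npl6 and Htl1 belong to the same RSC module, together with Ldb7. In npl6Δ 55 of the 56 genes were below WT, with a median log2 ratio of -0.65, against 0.01 for all 6051 measured genes and 0.05 for 138 other genes of like FPKM. In htl1Δ 55 were below WT as well, with a median of -0.39, against -0.10 for other genes of like FPKM. The npl6Δ ratio was lower than the htl1Δ ratio for 52 of the 56 genes, comparisons that share the same WT library. The like count over all genes is not given here. Log2 ratios here and below are of FPKM plus a pseudocount of 1.

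Few single genes were far from WT. At least 2-fold higher in npl6Δ was 1 member, RPS9A, where 4.63% of all genes were past that fold. At least 2-fold lower were 2 members, RPS14B and RPS9B, where 3.22% of all genes were. In htl1Δ no member was past 2-fold, against 3.89% of all genes higher and 2.86% lower. The lower level of the group was thus a small difference shared by nearly all members.

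The single-copy genes show the difference with no question of which copy a read came from. RPS2 (YGL123W), which lines the path of the messenger RNA into the subunit, stood at 6084 FPKM in WT and 3470 FPKM in npl6Δ, a log2 ratio of -0.81. RPS31 (YLR167W), which is made as a fusion to ubiquitin, stood at 22782 and 13165 FPKM, a ratio of -0.79. RPS13, RPS20, RPS15 and RPS12 had ratios of -0.74, -0.74, -0.69 and -0.65. RPS3 (YNL178W), a head protein at the path of the messenger RNA, was the closest to WT of the 8, from 5766 to 4212 FPKM, a ratio of -0.45. In htl1Δ the same 8 genes lay between -0.50 and -0.35.

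Differences by the position of a protein in the subunit were small. In npl6Δ the 22 genes of the head had a median of -0.68 and the 34 genes of the body and platform -0.62. In htl1Δ these medians were -0.43 and -0.39. Genes with an intron and genes without had medians of -0.62 and -0.67 in npl6Δ, and -0.39 and -0.43 in htl1Δ. Genes with the Rsc3 pattern within 250 bases had medians of -0.68 in npl6Δ and -0.44 in htl1Δ, and genes without it -0.64 and -0.39. The widest of these splits in npl6Δ was by the run of 8 A or T, with a median of -0.46 for the 10 genes that have it and -0.66 for the 46 without, and in htl1Δ these medians were -0.38 and -0.40.

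**Figure D1:**
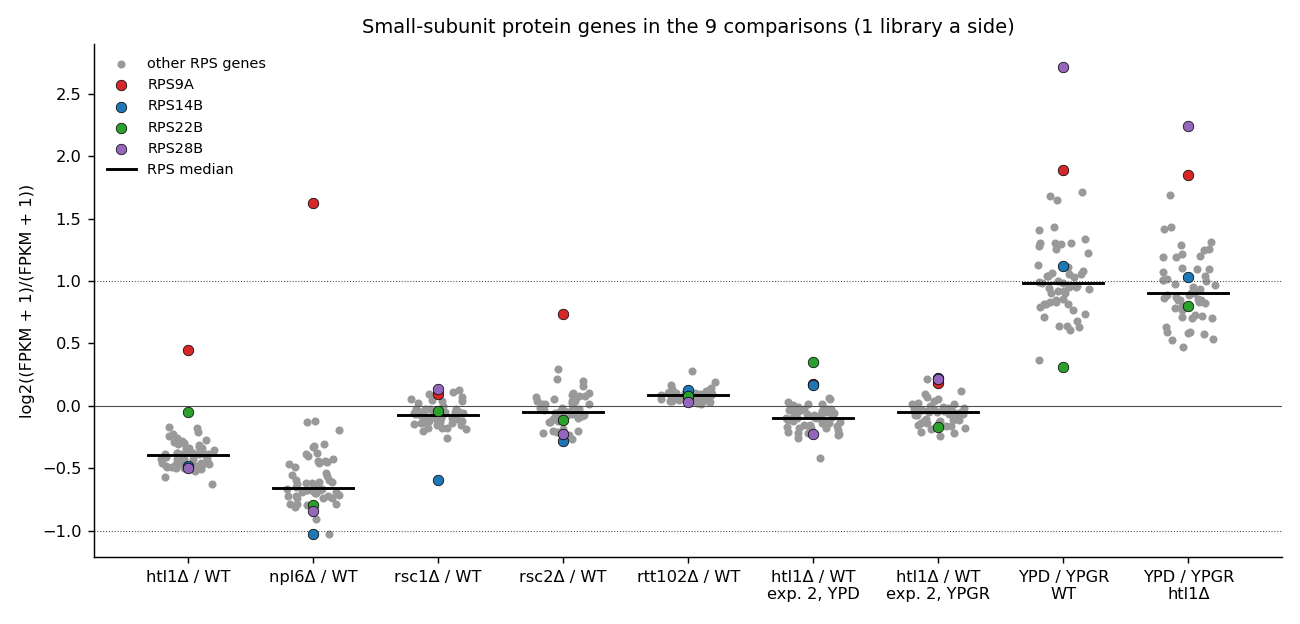
Log2 ratio of each RPS gene in the 9 comparisons (vertical axis, log2 of FPKM plus 1, test library over control library). Each point is 1 gene, bars are the median of the 56 genes, dotted lines mark 2-fold, and 4 genes chosen after their values were seen are coloured; the medians are -0.39 in htl1Δ and -0.65 in npl6Δ, near 0 in the other deletions, and 0.98 and 0.90 for YPD over YPGR.

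The other deletions left the group close to WT. In rsc1Δ 44 members were below WT and 12 above, with a median of -0.07, and none was past 2-fold, against 2.04% of all genes higher and 2.11% lower. In rsc2Δ 37 were below and 19 above, with a median of -0.05, and none was past 2-fold, against 3.74% and 2.61% of all genes. Rsc1 and Rsc2 are related proteins that occupy the same place in alternative forms of RSC. In rsc2Δ 133 other genes of like FPKM had a median of 0.29, so the RPS genes lay below genes of their own level there. In rtt102Δ all 56 were slightly above WT, with a median of 0.09 and a highest ratio of 0.28 for RPS29A, and none was past 2-fold, against 1.17% and 1.27% of all genes. Rtt102 is shared by RSC and the SWI/SNF remodeller. Of the 56 genes, 34 were below WT in htl1Δ, npl6Δ, rsc1Δ and rsc2Δ alike, comparisons that share the WT library.

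Mating type and MET17 differed from WT in some of these comparisons and their part was not tested. The npl6Δ library, of the same mating type as WT, had the lowest RPS median. The htl1Δ, rsc1Δ, rsc2Δ and rtt102Δ libraries, all of the other mating type, had medians of -0.39, -0.07, -0.05 and 0.09. MET17 was listed at 0 in npl6Δ and htl1Δ, the libraries with the lowest medians, and in rtt102Δ, and stood at 153 to 155 FPKM in WT in the npl6Δ and htl1Δ tables, 53.5 FPKM in rsc1Δ and 139 FPKM in rsc2Δ.

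The htl1Δ ratios were closer to 0 in the strains that carried GALpr-HTL1. In YPD 47 of the 56 genes were below WT, with a median of -0.10, and other genes of like FPKM had a median of -0.17. None was past 2-fold, against 3.78% of all genes higher and 2.06% lower. In YPGR 44 were below WT, with a median of -0.05, and none was past 2-fold, against 0.726% and 0.957% of all genes. RPS27A was lowest in YPD at -0.42, from 7291 to 5451 FPKM, and RPS22B highest at 0.35. Across the 56 genes the htl1Δ ratios of the first experiment and of the second in YPD, which share no library, had a Pearson correlation of 0.461, and of 0.220 without RPS9A, RPS14B, RPS22B and RPS28B. Over 6018 genes it was 0.339. Against the second experiment in YPGR it was 0.233 over the 56 genes and -0.17 over 5964 genes.

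**Figure D2:**
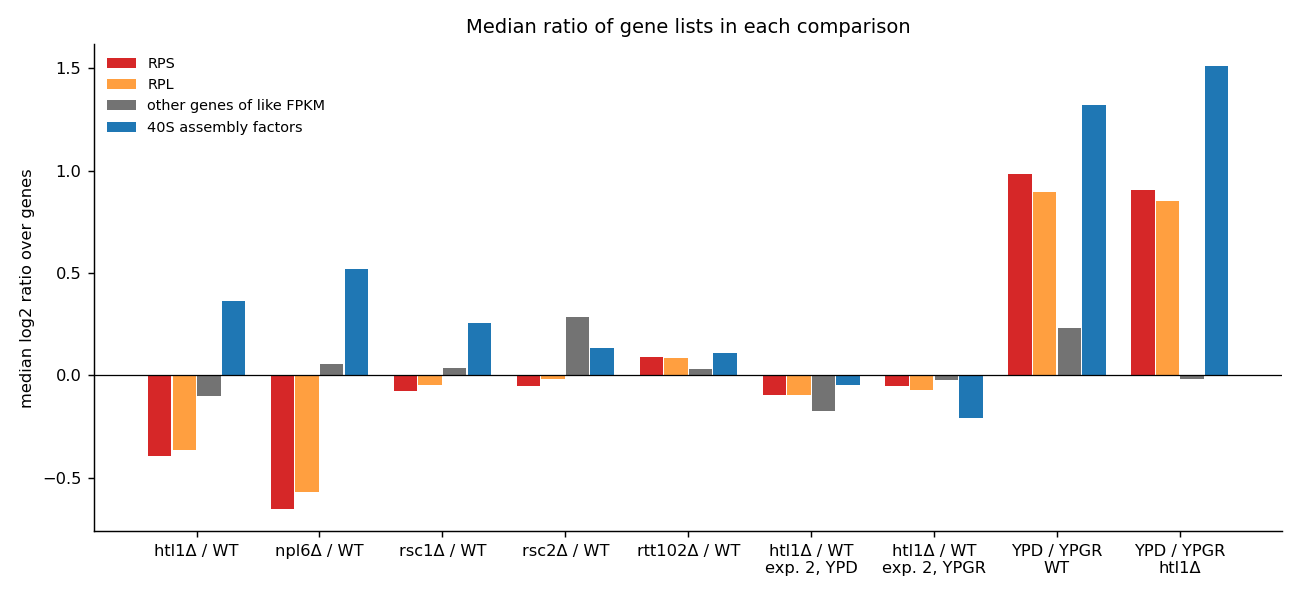
Median log2 ratio (vertical axis) of 4 gene lists in each of the 9 comparisons: RPS genes, RPL genes of the large subunit, other genes with FPKM in the range of the RPS genes, and 40S assembly factors. RPS and RPL bars run together in all 9, while assembly factors lie above 0 in htl1Δ and npl6Δ, at 0.37 and 0.52, where the RPS genes lie below it.

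The large-subunit genes had medians close to those of the RPS genes, at -0.57 in npl6Δ, -0.37 in htl1Δ and 0.90 and 0.85 for YPD over YPGR. The 40S assembly factors, which build and mature the subunit in the nucleolus and cytoplasm, had the opposite sign in npl6Δ, htl1Δ, rsc1Δ and rsc2Δ, and the same sign as the RPS genes in the other 3 strain comparisons. In npl6Δ 21 of 23 were above WT with a median of 0.52, led by BUD23, an rRNA methyltransferase, at 0.82, UTP4 at 0.74 and RRP12 at 0.65. In htl1Δ 21 of 23 were above WT with a median of 0.37, and in rsc1Δ 20 with a median of 0.26 and in rsc2Δ 19 with a median of 0.13. In rtt102Δ 21 were above WT with a median of 0.11, and with GALpr-HTL1 the medians were -0.05 in YPD and -0.21 in YPGR. TSR4, the chaperone of Rps2, was one of the 2 below WT in both npl6Δ and htl1Δ, at -0.47 and -0.16.

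Other 40S-bound proteins were low with the RPS genes in npl6Δ: ASC1, the RACK1 protein of the head, stood at 4042 FPKM in WT and 2094 FPKM in npl6Δ, a log2 ratio of -0.95. Among 15 measured regulators of ribosomal protein genes 8 were below WT and 7 above in npl6Δ, with a median of -0.05. HMO1, which binds many ribosomal protein promoters, was at -0.60 in npl6Δ and -0.67 in htl1Δ. TOD6, a repressor of ribosome biogenesis genes, was at 0.88 and 0.91. The 20 measured genes of the mitochondrial small subunit had medians of 0.26 and 0.27, so genes of that ribosome had the opposite sign from those of the cytosolic one.

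RPS9A (YPL081W) departed most from the group. Rps9 sits at the entry of the messenger RNA and is known for its effect on decoding accuracy. The gene is the minor copy, and its splicing is known to be repressed by Rps9 protein itself. In WT it stood at 320 to 336 FPKM over the 5 tables of the first experiment, which scale the same library by up to 1.05 times. Its level was 1024 FPKM in npl6Δ, 532 FPKM in rsc2Δ and 459 FPKM in htl1Δ, whereas rsc1Δ had 350 FPKM and rtt102Δ 345 FPKM. The npl6Δ library was far above the rest, and htl1Δ and rsc2Δ were above WT by less.

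The log2 ratio of RPS9A was 1.62 in npl6Δ, a 3.08-fold higher level, 0.73 in rsc2Δ and 0.45 in htl1Δ. In each of these 3 comparisons it was the highest ratio of the 56, and in htl1Δ and npl6Δ it was the 1 member above WT. The authors' deposited table gives p = 0.0025 and q = 0.232 for it in npl6Δ. In the second experiment YPD gave 379 FPKM for WT against 429 FPKM for htl1Δ, and YPGR gave 111 against 126 FPKM, so both pairs of libraries had it slightly higher in htl1Δ.

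RPS9B (YBR189W), the major copy, went the other way in npl6Δ, from 5526 to 2714.5 FPKM, a log2 ratio of -1.03. The share of RPS9A in the pair was 5.67% in WT, 10.2% in htl1Δ, 27.4% in npl6Δ and 9.39% in rsc2Δ. In rsc1Δ and rtt102Δ it was 6.13% and 5.64%. The difference between the ratios of the copies in npl6Δ was 2.65 on the log2 scale, the widest of the 24 pairs in that comparison, and the only one of 1 or more. The sum of both copies was 5858 FPKM in WT and 3739 FPKM in npl6Δ, a log2 ratio of -0.65, equal at 2 decimals to the median of the 56 genes. RPS9A was thus higher in a pair whose sum was as low as the RPS genes in general.

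**Figure D3:**
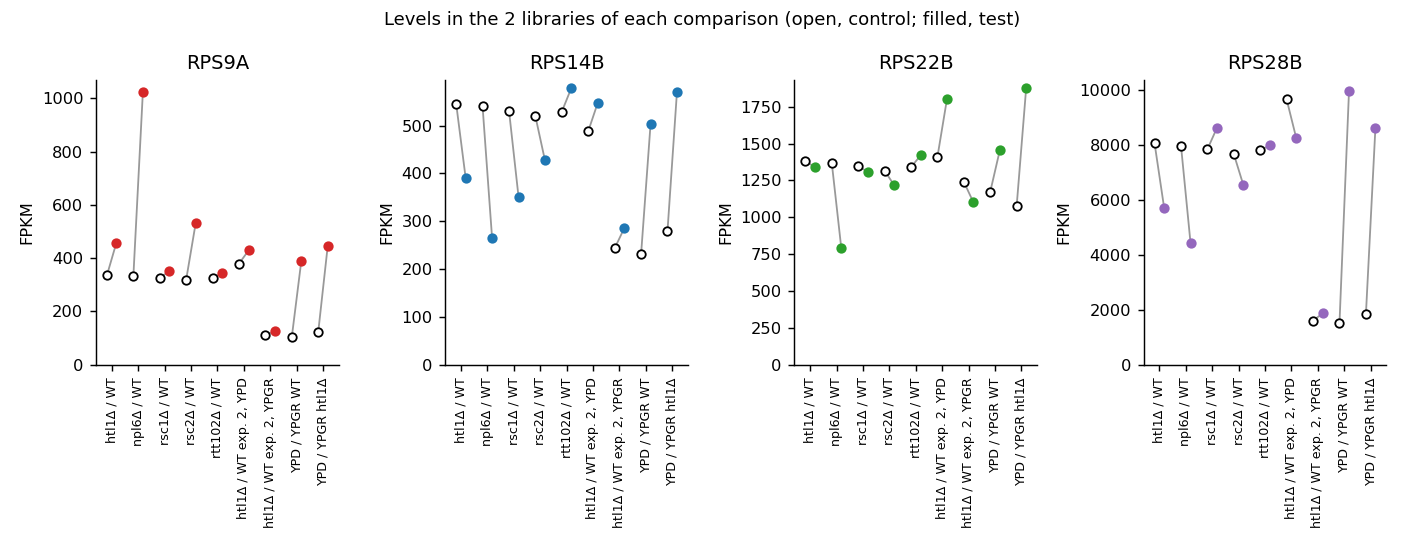
FPKM (vertical axis, from 0) of RPS9A, RPS14B, RPS22B and RPS28B in the control (open) and test (filled) library of each of the 9 comparisons, 1 library a point; WT of the first experiment recurs in the first 5. RPS9A is at 1024 FPKM in npl6Δ and at most 532 FPKM elsewhere, and RPS28B is at 1520 to 1866 FPKM in YPGR and at 4439 FPKM or more in YPD.

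RPS14B (YJL191W) lay at the other end. Rps14 is a platform protein needed to mature the end of the 18S rRNA, and it is known to bind the pre-mRNA of RPS14B and repress its splicing. RPS14B stood at 520 to 546 FPKM in WT, 265 FPKM in npl6Δ, 352 FPKM in rsc1Δ, 390 FPKM in htl1Δ and 428 FPKM in rsc2Δ, and at 579 FPKM in rtt102Δ. It was the lowest member in npl6Δ, rsc1Δ and rsc2Δ, at log2 ratios of -1.03, -0.59 and -0.28. In rsc1Δ the next lowest member, RPS17B, was at -0.25, so RPS14B stood apart there. The pair's summed ratio was 0.01 in rsc1Δ, with RPS14A (YCR031C) at 93.4% of the pair in WT. The authors' deposited table gives q = 0.851 for RPS14B in npl6Δ. In the second experiment it was slightly higher in htl1Δ than in WT, at 0.16 in YPD and 0.23 in YPGR.

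Summing the copies narrowed the group. Over single genes the SD of the log2 ratios was 0.36 in npl6Δ and 0.16 in htl1Δ, and over the 32 proteins it was 0.13 and 0.06. All 32 sums were below WT in both, from -0.85 for RPS18 to -0.28 for RPS28 in npl6Δ and from -0.52 for RPS18 to -0.28 for RPS25 in htl1Δ. No protein was past 2-fold in any deletion. A sum is set mainly by its more abundant copy.

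YPD against YPGR gave the largest differences. All 56 genes were higher in YPD in both pairs of libraries. In WT the median log2 ratio was 0.98 and 26 members were at least 2-fold higher, where 13.4% of all genes were and 12.9% were at least 2-fold lower. In the library pair labelled htl1Δ the median was 0.90 and 22 members were at least 2-fold higher, where 13.9% of all genes were and 13.1% were lower. Of these, 20 were past 2-fold in both, and the like count over all genes is not given here. Other genes of like FPKM had medians of 0.23 and -0.02.

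The YPD ratios of WT and of the libraries labelled htl1Δ, which share no library, were set side by side, although the latter pair goes against being one strain and so is not a ratio of media alone. Over the 56 genes the Pearson correlation was 0.935 and Spearman's 0.906, against a Pearson correlation of 0.759 over 6047 genes. These are descriptions across genes, which are not independent replicates. The median absolute difference between the 2 sets of ratios was 0.10. The largest was 0.49, for RPS22B.

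**Figure D4:**
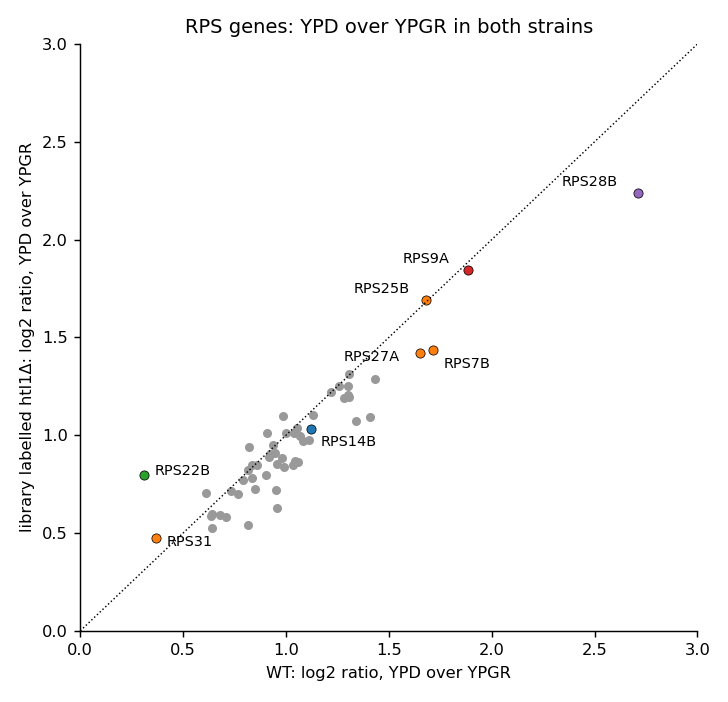
Log2 ratio of YPD over YPGR for each of the 56 genes in WT (horizontal axis) and in the libraries labelled htl1Δ (vertical axis), all with GALpr-HTL1; each point is 1 gene and the dotted line marks equality. All points lie above 0, most lie near the line, RPS28B is farthest out at 2.71 and 2.24, and RPS22B is off the line at 0.31 and 0.80.

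RPS28B (YLR264W) had the largest ratio. Rps28 sits in the head beside the path by which messenger RNA leaves, and in yeast the protein is known to trigger decay of the RPS28B messenger RNA with Edc3. RPS28B stood at 1520 FPKM in YPGR and 9954 FPKM in YPD in WT, 6.55-fold higher, and at 1828 and 8619 FPKM in htl1Δ, 4.71-fold higher. Its copy RPS28A had ratios of 1.00 and 1.01. The share of RPS28A in the pair was 89.1% in WT in YPGR and 71.3% in WT in YPD.

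RPS9A came next, from 105 to 391 FPKM in WT and from 124 to 447 FPKM in htl1Δ, log2 ratios of 1.89 and 1.85. RPS7B, a minor copy of a body protein, had 1.71 and 1.43, and RPS25B, a minor copy of a head protein, 1.68 and 1.69. The smallest ratios in WT were 0.31 for RPS22B, 0.37 for RPS31 and 0.61 for RPS3. The 8 single-copy genes had medians of 0.84 and 0.79, lower than the group, and RPS15, a decoding-site protein, was the highest of them at 1.11 and 0.97.

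RPS22B (YLR367W), a body protein gene, had the largest difference between the YPD ratio of WT and that of the libraries labelled htl1Δ. Its unspliced transcript is known to be cut by the nuclease Rnt1, and the annotation places the small nucleolar RNA snR44 at chrXII:856710-856920, inside the gene at chrXII:856442-857317. It stood at 1174 FPKM in YPGR and 1454 FPKM in YPD in WT, while htl1Δ had 1080 and 1879 FPKM. The libraries of WT and htl1Δ were close in YPGR, and in YPD htl1Δ was above WT. As given above, the YPGR and YPD libraries labelled htl1Δ go against being a single strain.

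Across the 24 pairs, the copy that was minor in WT of the first experiment had the larger YPD ratio in 17 pairs and the smaller in 7, and each pair had the same order in both sets of libraries. The median absolute difference between the copies' ratios was 0.36 in WT and 0.38 in htl1Δ, against 0.04 to 0.21 in the 7 strain comparisons, lowest in rtt102Δ and highest in npl6Δ. At 1 or more were 2 pairs in WT and 2 in htl1Δ. Leaving out the 4 pairs of uncertain split, the minor copy had the larger ratio in 13 of 20 in both.

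The balance between copies varied over the libraries by an amount that differed among pairs. Over the 10 libraries the share of the A copy spanned 10 percentage points or more in 11 pairs. The RPS9 pair spanned 24.0 points, RPS27 18.8, RPS28 17.8, RPS25 15.1 and RPS19 14.0. For RPS27 the share of RPS27A was 22.4% in htl1Δ in YPGR and 41.2% in npl6Δ, with 32.6% in WT of the first experiment. For RPS25 it was 68.0% in rtt102Δ and 83.1% in WT in YPGR, and for RPS19 29.4% in WT in YPGR and 43.4% in htl1Δ of the first experiment. A YPGR library was at an end of the range in all 24 pairs. In the RPS9 pair the medium was not the largest difference, as 21.7 of the 24.0 points lay within the first experiment. Within the first experiment the span was smaller in the other pairs named here. It was 9.59 points in RPS27, 10.2 in RPS28, 4.74 in RPS25 and 7.66 in RPS19. The narrowest span was 2.88 points, for RPS14, whose B copy was only 6.64% of the pair in WT. On the log2 scale the ratios of its copies differed by 0.64 in rsc1Δ, the widest of the 24 pairs in that comparison.

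**Figure D5:**
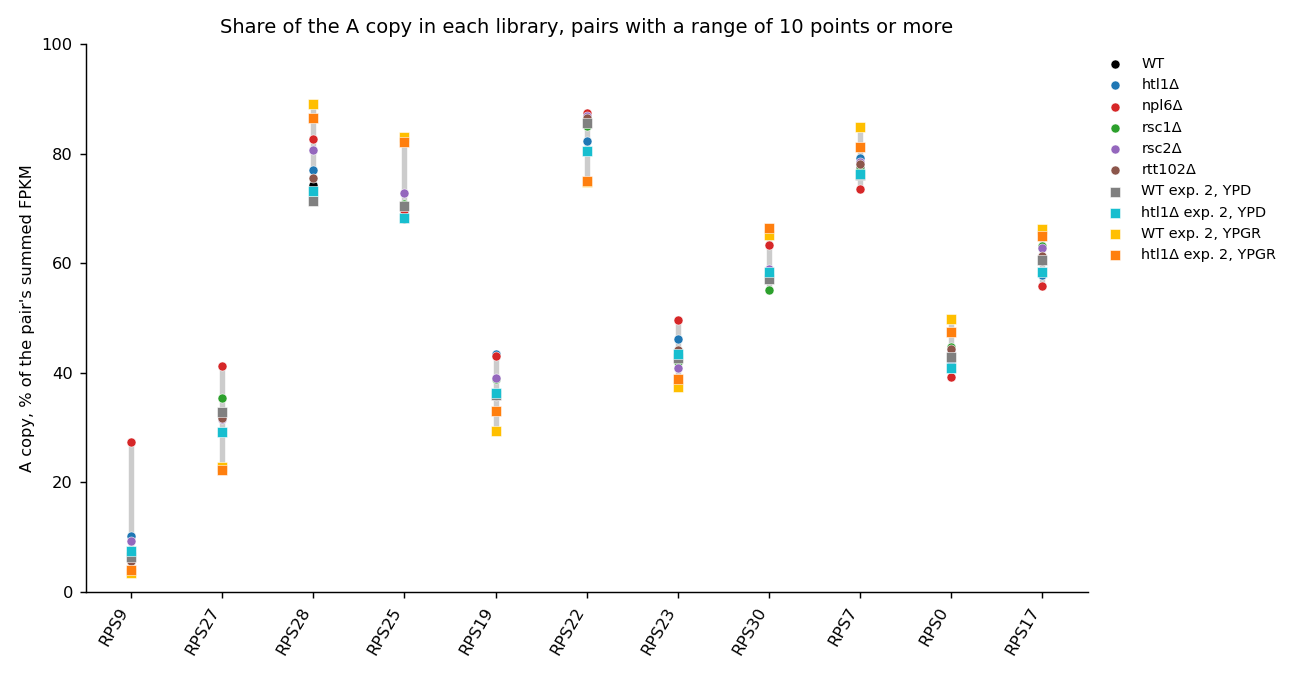
Share of the A copy in the summed FPKM of the 11 pairs in which it spanned 10 percentage points or more (vertical axis, percent), 1 point a library, circles for the first experiment and squares for the second, pairs ordered by the range of the share. npl6Δ stands alone in the RPS9 pair at 27.4%, and a YPGR library lies at an end of the range in each pair drawn.

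Among the lists beside the RPS genes, the 40S assembly factors had still larger YPD ratios. All 23 were higher in YPD in both pairs of libraries, with medians of 1.32 in WT and 1.51 in htl1Δ. They were led in WT by RRP12 at 2.56, ENP1 at 2.50 and TSR2, the chaperone of Rps26, at 2.43. The mitochondrial small-subunit genes went the other way, with medians of -0.36 and -0.55. Protein genes and assembly factors of the cytosolic subunit were thus both higher in YPD than in YPGR.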

How the data were processed

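Oligo-dT-selected RNA of 10 yeast cultures was sequenced on an Illumina instrument, as the labels' protocols say. For pairs of libraries, 9 tables with FPKM, p-values and q-values were deposited by the authors. Per the submitters' processing notes, TopHat, Cufflinks and Cuffdiff were used with the sacCer3 build; their versions and strand settings are not stated in the labels or file headers. Each table has 6931 rows, of which 115 that name several genes were left out and 6816 kept. Computed here, with Python 3.11.15, pandas 2.3.3 and NumPy 2.4.6: log2 ratios within a table with a pseudocount of 1 FPKM, for genes at 5 FPKM or more in 1 library and with status OK, and shares of the copies of a pair. Tables were scaled separately, so the log2 ratios of the 9 comparisons were taken within tables. Some levels of RPS9A, RPS14B and other genes are set side by side across tables. Scaling of the WT library of the first experiment differed by up to 1.05 times between tables. Library depth was inferred from the spacing of low FPKM values, with 87.4% to 92.5% of them whole within 0.1 of a fragment for an effective length 200 bases under the locus, and the intervals it would give cover counting error only.

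The script was tested on simulated data. Genes of like FPKM lie between the 10th and 90th percentile of the RPS genes. Motifs were searched on both strands with Biopython 1.88. Named genes are those past 2-fold, the 3 highest and 3 lowest ratios of a comparison, the 5 pairs with the widest range, the single-copy genes and the RPS9 pair; RPS22B and RPS14B were further followed after their values were seen, and at most 3 genes are named from each other list. The members and lists were chosen with earlier results of these data known. Alternatives were other pseudocounts and filters, centring, the rtt102Δ library as the control, and summing copies. Values of some members are not reported here by name.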

Additional observations from a re-analysis of the deposited data

Results flagged for a closer look

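For 3 genes the ratio of htl1Δ over WT in the strains with GALpr-HTL1 had opposite signs in YPD and YPGR, by more than 0.1 on the log2 scale in each medium. With 1 library a side the difference was not tested. RPS19A was at -0.16 in YPD and 0.12 in YPGR. RPS22B was at 0.35 in YPD and -0.17 in YPGR. RPS28B was at -0.22 in YPD and 0.22 in YPGR. The htl1Δ libraries of the 2 media differ in mating type and in MET17, as given above, and the part of that in these ratios was not tested.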

How the results depend on the processing

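Pseudocounts of 0.1 and 10 FPKM, no filter or a filter of 20 FPKM, centring on the median of all genes, and keeping rows of any status or of several genes moved no RPS median by 0.1 or more on the log2 scale and reversed none. These choices could hardly move a median, because every RPS gene was measured in each comparison, at 105 FPKM or more. The medians of all genes lay between -0.01 and 0.01, so centring could hardly move it either. Taking the rtt102Δ library as the control gave medians of -0.48 in htl1Δ, -0.75 in npl6Δ, -0.15 in rsc1Δ and -0.14 in rsc2Δ. The single-copy genes alone gave 0.84 in WT and 0.79 in htl1Δ for YPD over YPGR. The share of all FPKM depends on what is in the total. Without the 10 highest genes it was 21.3% in WT, 17.8% in htl1Δ, 15.7% in npl6Δ, 20.2% in rsc1Δ, 19.6% in rsc2Δ and 21.6% in rtt102Δ, and in the second experiment 21.1% and 20.7% in YPD and 13.3% and 12.8% in YPGR for WT and htl1Δ. A further total, chosen after the data were seen, left out loci under 300 bases but kept every RPS gene whatever its length. The share was then 22.6%, 19.7%, 17.2%, 22.1%, 21.3%, 23.4%, 22.4%, 22.5%, 15.1% and 14.6% in the same order. Short RPS genes stayed in while other short loci were dropped, so these shares are raised by the way they were made. No paired analysis was possible because the groups compared share only 1 replicate number. YPD against YPGR with the strain as a block was not fitted, and the 2 libraries labelled htl1Δ go against being one strain. Counting error weighs most on the lowest members, RPS9A and RPS14B, and the lack of replicates limits every comparison. The counts of RPS genes past 2-fold stayed within 1.5 times of those given. The background counts of all genes past 2-fold were smaller with a pseudocount of 10 FPKM. The numbers higher and lower were then 146 and 101 in htl1Δ in place of 235 and 173, 169 and 103 in npl6Δ in place of 280 and 195, 67 and 64 in rsc1Δ in place of 123 and 127, and 134 and 78 in rsc2Δ in place of 226 and 158. In rtt102Δ 41 were lower in place of 76. With GALpr-HTL1 they were 110 and 78 in YPD in place of 230 and 125, and 18 and 34 in YPGR in place of 44 and 58. A filter of 20 FPKM gave 143 higher in YPD and 23 in YPGR.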
